A study of Mus musculus with 24 samples.

Results

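The mast cell genes of the mouse choroid described here are 10 genes, of the 56065 genes quantified, that mark or run the classical mast cell: the granule proteases Cpa3, Mcpt4, Cma1, Tpsb2 and Tpsab1, the receptor genes Kit, Ms4a2 and Fcer1a, the histamine enzyme gene Hdc and the transcription factor gene Gata2. They were chosen by name, as known mast cell genes, at a time when earlier results of these data were known. Bulk RNA sequencing was done on 24 choroid libraries, the tissue being the complex of retinal pigment epithelium, choroid and sclera, to ask what loss of CEACAM1, a cell adhesion receptor, and laser injury do to it. The groups were wild type without laser (n = 4), wild type with laser (n = 9), Ceacam1-/- without laser (n = 4) and Ceacam1-/- with laser (n = 7). All mice were on a C57BL/6J background, and the knockouts were homozygous in every cell for a deletion of exons 1 and 2 of Ceacam1, with wild type littermates from heterozygous matings as controls. The general age range given for the mice was 6 to 8 weeks, both sexes were used, and the labels give neither the sex of a mouse nor the time between laser and collection. The laser groups received 6 burns per eye (Nd:YAG, 150 mW, 200 µm, 100 ms).

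Mast cells leave the bone marrow as progenitors and mature in connective tissue, where they lie along vessels and nerves, and the choroid is a layer of the eye known to hold them. Stem cell factor acting on KIT keeps them alive, and antigen acting on IgE bound to the high-affinity receptor FcεRI makes them release granules with histamine, heparin, carboxypeptidase, chymases and tryptases. In the laser model, burns break Bruch's membrane and new choroidal vessels grow through the breaks.

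All genes are given in the GRCm39 build with GENCODE annotation, and each of them is protein coding. Cpa3 (ENSMUSG00000001865, chr3:20269774-20296362, minus strand) encodes mast cell carboxypeptidase. Mcpt4 (ENSMUSG00000061068, chr14:56297086-56299770, minus strand) encodes the chymase of connective tissue mast cells, and Cma1 (ENSMUSG00000022225, chr14:56178908-56182132, minus strand), 115 kb away in the same protease cluster, encodes a further chymase family member with elastase-like activity. The tryptase genes Tpsb2 (ENSMUSG00000033825, chr17:25585170-25588079, plus strand) and Tpsab1 (ENSMUSG00000024173, chr17:25562212-25564541, minus strand) lie 20.6 kb apart. Kit (ENSMUSG00000005672, chr5:75735576-75817404, plus strand) encodes the stem cell factor receptor, which melanocytes also carry. Ms4a2 (ENSMUSG00000024680, chr19:11592887-11601083, minus strand) and Fcer1a (ENSMUSG00000005339, chr1:173048851-173054781, minus strand) encode the β and α chains of FcεRI. Hdc (ENSMUSG00000027360, chr2:126435558-126461318, minus strand) encodes histidine decarboxylase, which makes histamine, and Gata2 (ENSMUSG00000015053, chr6:88170559-88184018, plus strand) encodes a transcription factor that mast cells need and that endothelium also uses.

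Because Cpa3, Mcpt4 and Cma1 moved together across the libraries, their promoters are shown, as the 250 bases before the RefSeq start, 5′ to 3′ on the strand of the gene. They were read from a RefSeq promoter table of the GRCm38.p6 build, and each matched its GRCm39 chromosome once: Cpa3 at chr3:20296346-20296595, Mcpt4 at chr14:56299768-56300017 and Cma1 at chr14:56182133-56182382, all on the minus strand. Capitals mark GATA-type hexamers on either strand (the letters AGATAA, the same ending in G, written AGATAG, and both of these starting with T, written TGATAA and TGATAG; the capitals in Cma1 are the second of these on the opposite strand), the motif that GATA factors such as GATA2 read.
Cpa3: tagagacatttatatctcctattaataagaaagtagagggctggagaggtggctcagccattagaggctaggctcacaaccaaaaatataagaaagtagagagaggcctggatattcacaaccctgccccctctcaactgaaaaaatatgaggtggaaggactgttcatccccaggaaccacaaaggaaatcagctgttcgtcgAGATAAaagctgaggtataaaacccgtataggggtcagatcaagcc
Mcpt4: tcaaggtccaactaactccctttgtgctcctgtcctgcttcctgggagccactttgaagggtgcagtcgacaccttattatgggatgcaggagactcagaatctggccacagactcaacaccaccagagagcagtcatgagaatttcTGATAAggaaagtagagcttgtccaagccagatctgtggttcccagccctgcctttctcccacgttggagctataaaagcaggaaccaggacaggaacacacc
Cma1: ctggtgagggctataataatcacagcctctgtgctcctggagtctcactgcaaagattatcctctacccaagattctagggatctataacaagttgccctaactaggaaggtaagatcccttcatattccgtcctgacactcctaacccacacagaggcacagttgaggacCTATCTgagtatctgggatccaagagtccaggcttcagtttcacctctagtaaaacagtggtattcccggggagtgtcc
Each of these 3 windows held 1 such hexamer, at 46 to 41 bases before the start in Cpa3, 103 to 98 in Mcpt4 and 79 to 74 in Cma1. Of the 10 genes 8 had an entry in the table, and 6 of those 8 held at least 1 hexamer (Cpa3, Mcpt4, Cma1, Ms4a2 with 3, Fcer1a and Hdc), whereas Kit and Gata2 held none. Across all 32851 promoters of the same length 26.5% held one. These matches describe letters and do not show that a factor binds there. No entry was found for Tpsb2 and Tpsab1. Over the aligned bases, the Mcpt4 and Cma1 windows were 62.1% identical.

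Some of these transcripts resemble their neighbours, which matters for how reads are shared out. The aligned transcripts of Mcpt4 and Cma1 were 68.5% identical and those of Tpsb2 and Tpsab1 72.5%. Of the 31-base words of Mcpt4, 16.4% also occur in transcripts of other genes, most of them of Cma2, and of those of Cma1 10.6%, all of them in Gm48934. Both neighbours were close to 0 in these libraries, at no more than 5.44 for Cma2 and 0.975 for Gm48934. Tpsb2 and Tpsab1 shared 9 words, 0.7% and 0.8% of their own. Ms4a2 shared 4.3% of its words, mostly with Ms4a4b. In wild type Ms4a4b had medians of 35.2 without and 41.5 with laser, beside 9.39 and 1.02 for Ms4a2. In Ceacam1-/- Ms4a4b had 9.81 and 64.5, beside 12.2 and 0 for Ms4a2. The low values of Ms4a2 are therefore uncertain.

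The values are read counts estimated per gene and normalized between libraries (normalized counts), so that sequencing depth itself is unknown, and they summed to between 23704346 and 35094410 per library. Ceacam1 was measured first, as a check of the labels. Without laser it ranged from 958 to 5027 in wild type and from 405 to 1171 in Ceacam1-/- libraries. With laser it had a median of 996 (774 to 8367) in wild type and of 335 (67.8 to 905) in Ceacam1-/-. Knockout medians were lower in both conditions, but the ranges overlapped, and reads from exons outside the deletion can still be counted. The markers of the tissue were present in every library, with Rpe65, the visual cycle isomerase of the pigment epithelium, at medians of 33111 and 33812 without and with laser in wild type and of 29377 and 12803 in Ceacam1-/-, where it was as low as 2045 with laser. Plvap, a diaphragm protein of fenestrated choroidal capillaries, had medians of 5910 and 9776 in wild type and of 8731 and 7468 in Ceacam1-/-.

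The libraries differed widely in other tissue. The photoreceptor markers Gnat1, Pde6b, Rcvrn, Prph2 and Sag summed to more than 200000 normalized counts in 5 libraries, between 280518 and 523187: 21 (wild type without laser), 23 (Ceacam1-/- without laser) and 14, 15 and 18 (Ceacam1-/- with laser). The next library, 27, had a sum of 135568. No wild type library with laser was among them. Keratin genes and Trp63, markers of surface epithelium, summed to between 188895 and 489855 in libraries 22, 19, 28 and 15 and to 630 in the median library. The main results are therefore given with and without the 5 photoreceptor-rich libraries, a choice made after the data were seen.

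Per kilobase of canonical transcript, the abundant members had medians between 99.4 and 169. The median normalized count per kilobase over 24 libraries was 169 for both Cma1 and Tpsb2, 157 for Gata2, 109 for Mcpt4, 107 for Kit and 99.4 for Cpa3, and then dropped to 14.0 for Hdc, 8.02 for Tpsab1, 4.60 for Fcer1a and 0.489 for Ms4a2. The ranges of the first 6 over the libraries overlapped. The SD per kilobase was 112 for Cma1, 111 for Tpsb2, 58.6 for Gata2, 91.7 for Mcpt4, 60.9 for Kit and 53.7 for Cpa3. These SDs are between libraries and do not measure the difference between 2 genes of the same library. Within libraries, and before scaling by length, the ratio of Mcpt4 to Tpsb2 had a median of 0.636 (0.332 to 1.02). With the longest transcript in place of the canonical one, Tpsb2 was at 125 and Gata2 at 122. The ranges of the 4 lower genes also overlapped. Among the tryptases, Tpsb2 was far above Tpsab1, the gene whose protein C57BL/6 mice are known to lack because of a splice site change.

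**Figure D1:**
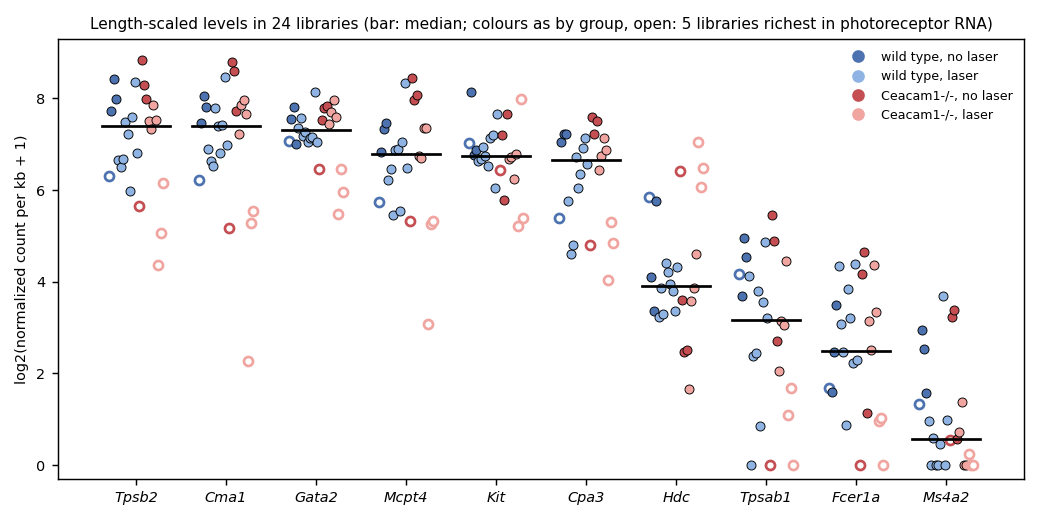
Normalized counts per kilobase of canonical transcript (log2 of the value plus 1, vertical axis) for each gene, 1 point for each of 24 libraries coloured by group; bars are medians, open points the 5 photoreceptor-rich libraries. Cma1, Tpsb2, Gata2, Mcpt4, Kit and Cpa3 share 1 band with medians of 99.4 to 169, and Hdc, Tpsab1, Fcer1a and Ms4a2 lie below it; open points are low for the proteases and high for Hdc.

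Cpa3, the carboxypeptidase gene, lay at 60.2, 194, 220 and 218 normalized counts in wild type libraries without laser and at 39.6, 282, 220 and 269 in Ceacam1-/- libraries without laser. With laser its median was 119 (34.3 to 205) in wild type and 127 (22.8 to 206) in Ceacam1-/-. Libraries 21 and 23, the photoreceptor-rich ones, were the low ones without laser, and all 4 ranges overlapped.

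Mcpt4, the chymase gene, lay at 57.8, 125, 177 and 195 in wild type and at 43.0, 388, 276 and 298 in Ceacam1-/- libraries without laser. With laser it had a median of 98.0 (47.5 to 357) in wild type and 114 (8.19 to 181) in Ceacam1-/-. In the knockout 3 of 4 libraries without laser thus stood above every library with laser, and library 23 stood below most of them.

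Cma1, its neighbour on chromosome 14, lay at 79.6, 191, 289 and 245 without laser in wild type and 38.4, 485, 419 and 231 in Ceacam1-/-. As for Mcpt4, libraries 21 and 23 were the lowest without laser and library 24 the highest, but library 26 stood above 27 and library 25 above 28, the reverse of Mcpt4. Its medians with laser were 136 (98.8 to 385) in wild type and 162 (4.20 to 273) in Ceacam1-/-. Library 14, with 4.20, held almost none of it.

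Tpsb2, the main tryptase gene, lay at 96.9, 263, 427 and 313 in wild type and 61.2, 572, 387 and 315 in Ceacam1-/- libraries without laser, with medians after laser of 139 (77.9 to 409) and 199 (24.6 to 288). Tpsab1 was lower throughout, at 20.5, 14.3, 35.8 and 26.9 in wild type and 0, 51.7, 34.4 and 6.62 in Ceacam1-/- without laser, and its medians with laser were 9.84 (0 to 33.8) and 3.75 (0 to 25). The ranges with and without laser overlapped for both tryptases.

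**Figure D2:**
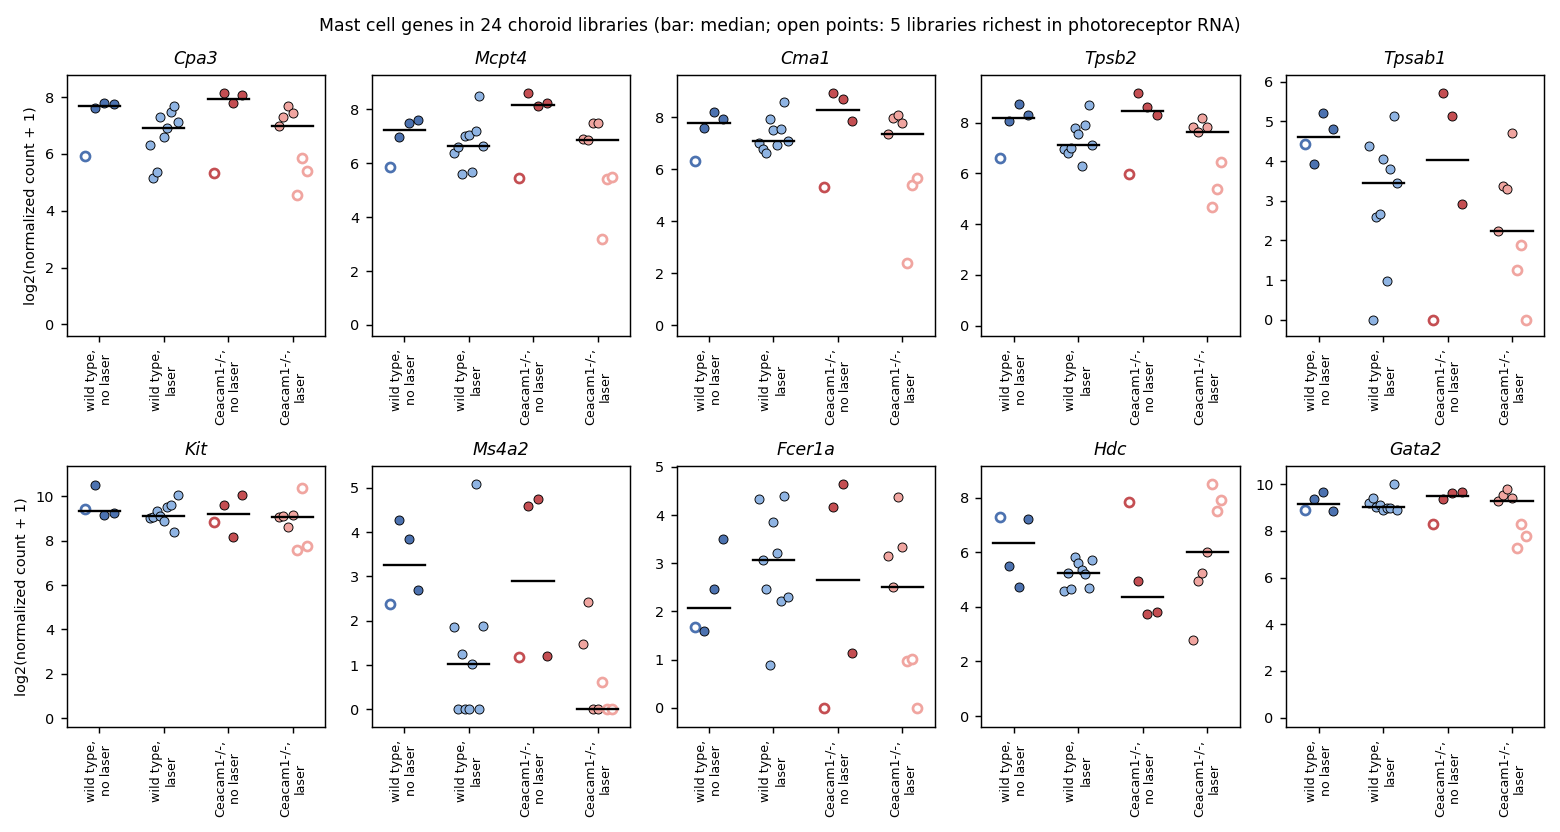
Level of each gene (log2 of the normalized count plus 1, vertical axis) in each library of the 4 groups; bars are medians and open points the 5 photoreceptor-rich libraries. For Cpa3, Mcpt4, Cma1 and Tpsb2 the open points are the lowest of their groups, for Hdc the highest, and no gene separates 2 groups completely.

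Whether laser changed the genes was tested with limma on log2(normalized count + 1) over all genes with a mean of at least 10, at a Benjamini-Hochberg adjusted p of 0.05; 8 of the 10 members reached that mean, all but Ms4a2 and Fcer1a. In wild type 0 of 8 passed, where 5.28% of all genes did (844 higher and 209 lower), and 0 of 8 had an unadjusted p under 0.05, where 3993 of all 19950 genes did. All 8 estimates were negative, with a median log2 fold change of -0.47 beside -0.10 over all genes. For Cpa3 the log2 fold change was -0.62 ± 0.61 (SE; limma adjusted p = 0.582), that is 0.650-fold with a 95% confidence interval of 0.271 to 1.56. For Tpsb2 it was -0.57 ± 0.62, for Mcpt4 -0.25 ± 0.68 and for Cma1 -0.17 ± 0.79. On the log2 scale the widest interval belonged to Tpsab1 (-3.62 to 0.44), which was at 0.332-fold (0.0816 to 1.35). In a bulk library, fewer mast cells, less RNA per mast cell and a different share of other tissue cannot be told apart. The part of other tissue in these estimates was not tested.

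In Ceacam1-/- choroid 0 of 8 members passed after laser, where 3.72% of all genes did, and 1 of 8, Mcpt4, had an unadjusted p under 0.05, where 3997 of all 19950 genes did. Mcpt4 was at 0.358-fold (95% confidence interval 0.130 to 0.989; limma adjusted p = 0.243), Cma1 at 0.40-fold (0.123 to 1.31), Tpsb2 at 0.451-fold (0.178 to 1.14) and Cpa3 at 0.546-fold (0.219 to 1.36). The median log2 fold change of the 8 was -0.97, beside 0.02 over all genes, and 7 of 8 estimates were negative. Single libraries decided the size: the median was -1.68 without library 23, the photoreceptor-rich control, -0.52 without library 24 and -0.61 without library 14, and the members with an unadjusted p under 0.05 numbered 6, 0 and 0 of 8, beside 29.8%, 15.5% and 19.9% of all genes. Leaving out library 23 also took Mcpt4 to a log2 fold change of -2.20 and past the threshold (limma adjusted p = 0.0446), as 2488 of all 19888 genes were in that fit, the only such change among the libraries left out in turn. Without all 5 photoreceptor-rich libraries, 0 members passed in either genotype, beside 8.39% of all genes in wild type and 14.9% in Ceacam1-/-. At an unadjusted p under 0.05 there were Cpa3 and Tpsb2 in wild type and Mcpt4 in Ceacam1-/-, beside 22.7% and 28.8% of all genes. In this fit the log2 fold changes in Ceacam1-/- were -1.13 for Mcpt4, -0.70 for Cma1, -0.82 for Tpsb2 and -0.64 for Cpa3, with -0.62, -0.56, -1.01 and -1.07 in wild type.

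Skeletal muscle markers (Acta1, Ckm, Myh1, Myh2, Myh4, Tnnt3, Mylpf and Atp2a1), which can come from the eye muscles, varied with the proteases. All 8 were above 0 in every group, with Atp2a1 the most abundant, and their summed level had medians of 515613 without and 335320 with laser in wild type and of 619584 and 110271 in Ceacam1-/-. By limma 0 of 8 passed for laser, beside 5.28% of all genes in wild type and 3.72% in Ceacam1-/-. All 8 markers had estimates below 0 in each genotype. In wild type their log2 fold changes had a median of -0.95, and 1 of 8 had an unadjusted p under 0.05. In Ceacam1-/- the median was -2.09, and 7 of 8 had an unadjusted p under 0.05, beside 3993 and 3997 of all 19950 genes in wild type and Ceacam1-/-. Their mean had r = 0.76 with that of the 4 proteases over 24 libraries and 0.46 in the 19 without the photoreceptor-rich ones, or 0.75 and 0.22 with group means removed. Their part in the protease levels was not tested.

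Markers of the retinal pigment epithelium (Rpe65, Best1, Rlbp1, Ttr and Lrat) also varied with the proteases, with r = 0.65 over 24 libraries and 0.26 in the 19, or 0.62 and 0.33 with group means removed. Their summed level, most of all from Ttr, had medians of 196061 without and 205684 with laser in wild type, and of 208849 and 102821 in Ceacam1-/-. For laser 0 of 5 passed in limma, beside 5.28% of all genes in wild type and 3.72% in Ceacam1-/-. The median log2 fold change was 0.02 in wild type, with 0 of 5 at an unadjusted p under 0.05, and in Ceacam1-/- it was -1.56, with 4 of 5, beside the same counts of all genes as for muscle. The part of this tissue in the protease levels was not tested either. Fibroblast markers had r = 0.45 with the proteases over 24 libraries and -0.51 in the 19. With group means removed these were 0.78 and -0.17.

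The summed level of Cpa3, Mcpt4, Cma1 and Tpsb2 shows the same layout. Its median was 872 (294 to 1113) in wild type without laser and 512 (313 to 1355) with laser, and 1208 (182 to 1726) and 634 (59.8 to 947) in Ceacam1-/-. In the libraries left without the 5 photoreceptor-rich ones it was 971 (772 to 1113, n = 3) and 512 (313 to 1355, n = 9) in wild type, and 1303 (1113 to 1726, n = 3) and 759 (634 to 947, n = 4) in Ceacam1-/-.

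The laser effects of both genotypes were compared by an interaction term, which 0 of 8 members passed in limma, beside 0% of all genes (0 of 19950), while 1241 genes and 0 members had an unadjusted p under 0.05. Among the members Hdc had the largest interaction in this fit, 2.01 ± 1.19 on the log2 scale (limma adjusted p = 0.640), and Mcpt4 had -1.23 ± 0.98. The median of the 8 was -0.34, with 5 of 8 below 0. Without the 5 photoreceptor-rich libraries it was 0.17, with 2 of 8 below 0, and 0 members and 0 of 19596 genes passed.

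Genotype without laser was the comparison with the fewest libraries, 4 against 4. In it 0 of 9 members passed, all but Fcer1a being tested, beside 0% of all genes (307 genes and 0 members at an unadjusted p under 0.05 in limma). Ceacam1 itself was thus not called in this fit. The paper, using DESeq2 with sex as a covariate, did report differentially expressed genes between choroids of these genotypes without laser. Mcpt4 was at 1.53-fold in Ceacam1-/- (95% confidence interval 0.501 to 4.66) and Cpa3 at 1.05-fold (0.350 to 3.12), Cma1 at 1.14-fold (0.330 to 3.94) and Tpsb2 at 1.06-fold (0.343 to 3.27), so that sizable differences in either direction lie within each of these intervals. Kit had the narrower interval of 0.361 to 1.52 and Gata2 of 0.602 to 1.77. Without libraries 21 and 23, 3 against 3, the median log2 fold change of the 9 went from 0.05 to 0.27 and that of Mcpt4 was 0.96 (limma adjusted p = 0.909), the only member with an unadjusted p under 0.05, beside 3.94% of all genes. The direction of the median depended on single libraries. It was -0.38 without library 21 alone, with 8 of 9 estimates negative, and 0.36 without library 23 alone. Without library 23 Mcpt4 and Hdc had an unadjusted p under 0.05 in limma, beside 8.77% of all genes.

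With laser 0 of 7 members passed between genotypes, and 0.0202% of all genes did (4 of 19757 genes, with 4479 genes and 0 members at an unadjusted p under 0.05 in limma). The estimates of the proteases were below 0 and turned above 0 when libraries 14, 15 and 18, the photoreceptor-rich ones of this fit, were left out: from -0.19 to 0.71 for Cpa3, -0.62 to 0.45 for Mcpt4, -0.96 to 0.46 for Cma1 and -0.49 to 0.52 for Tpsb2. Hdc turned the other way, from 0.92 to -0.46. Of these estimates 0 passed in either fit.

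**Figure D3:**
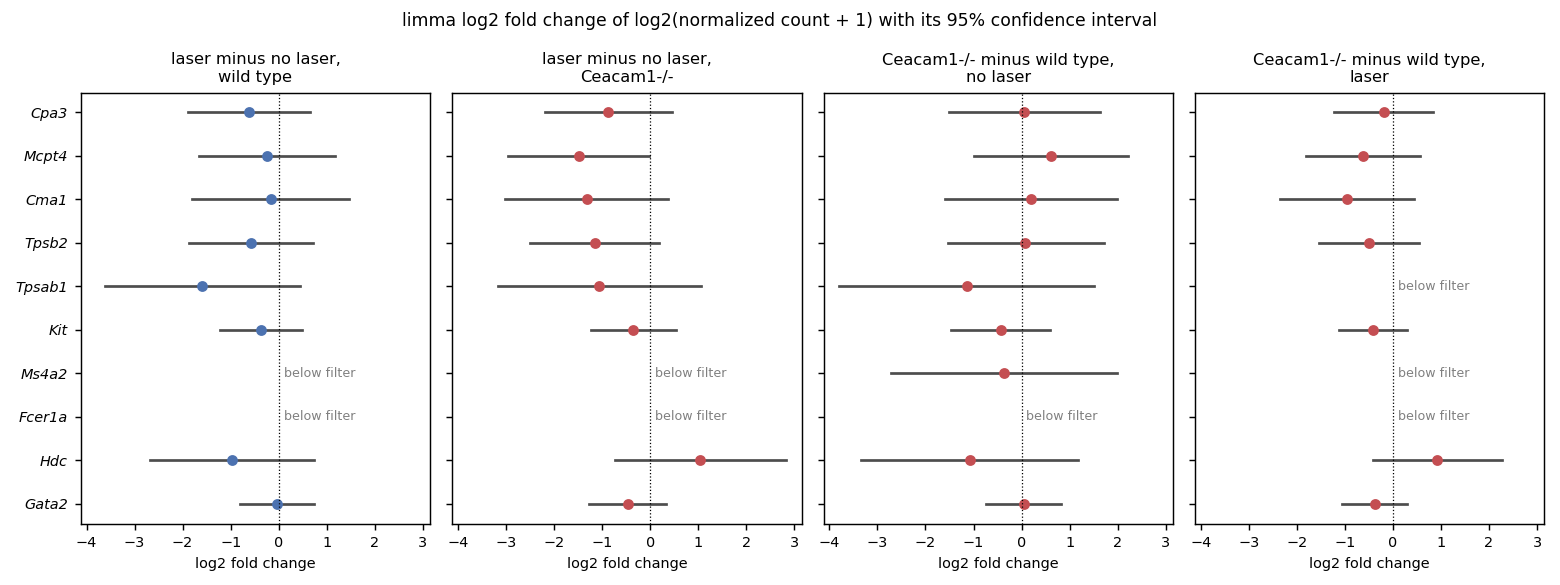
log2 fold changes (horizontal axis, points) with 95% confidence intervals (lines) from limma for each gene in 4 comparisons; genes below the mean of 10 are marked. Every interval includes 0 except that of Mcpt4 for laser in Ceacam1-/- (-2.95 to -0.02), which did not pass after adjustment.

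Although no member passed a comparison, 4 of them moved together across the libraries. Over 24 libraries Pearson's r of log2 levels was between 0.86 (Cpa3 and Cma1) and 0.95 (Mcpt4 with Cma1 and with Tpsb2), and Spearman's coefficient between 0.91 and 0.95. In the 19 libraries without the 5 photoreceptor-rich ones r was between 0.76 and 0.91, and without the 2 libraries farthest from the median of the second gene of a pair between 0.84 and 0.94. The points share the library preparation and the mix of tissue in each eye, and all correlations here are descriptions without a test.

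Set against the mean standardized level of the other 3 proteases, Mcpt4, Cma1 and Tpsb2 each ranked first of 19947 genes in the likeness of their pattern (r = 0.959, 0.947 and 0.955) and Cpa3 ranked 3 (r = 0.890). In the 19 libraries the ranks were 1, 1, 1 and 16. The genes lie on chromosomes 3, 14 and 17, so they do not form a single gene cluster. The ratio of Mcpt4 to Tpsb2 varied less than either gene: the SD of its log2 value was 0.387 over 24 libraries, with 1.22 for Mcpt4 and 1.11 for Tpsb2. The log2 ratio of Cma1 to Tpsb2 had an SD of 0.540 over 24 libraries and 0.304 in the 19, where the genes themselves had 0.646 and 0.744. The proportions were not fixed. Cma1 was at 0.170 of Tpsb2 in library 14, beside a median of 0.895, and the pair of Cpa3 and Cma1 was the loosest, with an SD of 0.725 over 24 libraries. Cpa3 ran from 0.354 of Mcpt4 in library 2 to 2.78 in library 14 and from 0.310 of Tpsb2 in library 2 to 1.53 in library 13, with an SD of the log2 ratio of 0.591 and 0.538.

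**Figure D4:**
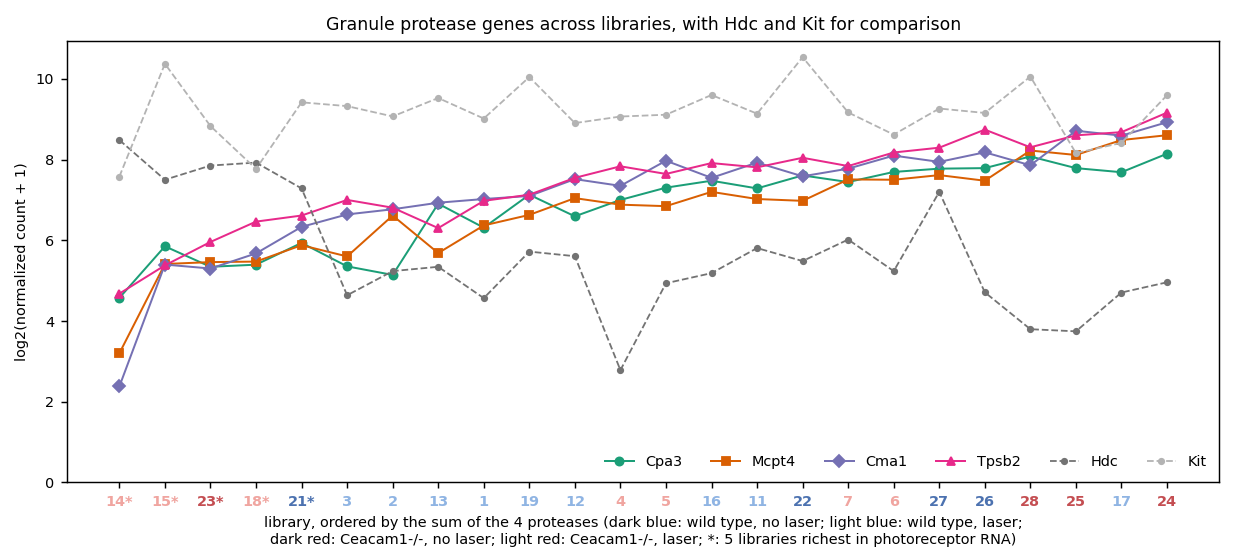
log2 of the normalized count plus 1 (vertical axis) of 4 protease genes in 24 libraries ordered by their sum, with Hdc and Kit dashed. The 4 protease lines climb together from library 14 (sum 59.8) to library 24 (sum 1726), the 5 starred photoreceptor-rich libraries are the lowest 5, and Hdc is highest at that end.

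The other 6 members shared this pattern less or not at all. Tpsab1 had r = 0.73 with the mean of the 4 proteases over 24 libraries and 0.74 in the 19, although it was low. Gata2 had r = 0.85 over 24 and 0.54 in the 19. Kit had r = 0.27 and -0.14, and Hdc had -0.67 and -0.07. The IgE receptor genes, both near the limit of detection, had 0.43 and 0.38 (Ms4a2) and 0.58 and 0.16 (Fcer1a).

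Hdc was high where photoreceptor RNA was high. It lay at 155, 43.8, 25.2 and 146 in wild type libraries without laser (21, 22, 26 and 27) and at 230, 30.1, 12.4 and 12.9 in Ceacam1-/- libraries without laser (23, 24, 25 and 28). With laser the median was 36.7 (22.7 to 55.0) in wild type and 63.8 (5.88 to 357) in Ceacam1-/-. The 5 photoreceptor-rich libraries gave the 5 highest values, between 155 and 357. With the mean of the same 5 photoreceptor markers r was 0.89 over 24 libraries and 0.74 in the 19. By limma the laser difference was 0.511-fold (95% confidence interval 0.156 to 1.67) in wild type and 2.05-fold (0.598 to 7.05) in Ceacam1-/-. Hdc passed in wild type with array weights (limma adjusted p = 0.0348), as did 32.6% of all genes. In Ceacam1-/- it had an unadjusted p under 0.05 without library 23 or 4, beside 29.8% and 21.4% of all genes. Outside the photoreceptor-rich libraries, its Ceacam1-/- values were 30.1, 12.4 and 12.9 without laser and 5.88, 29.6, 36.7 and 63.8 with laser. The part of photoreceptor RNA in the laser difference was not tested.

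Gata2 lay at 481, 663, 803 and 454 in wild type and 314, 661, 790 and 808 in Ceacam1-/- libraries without laser, with medians after laser of 516 (468 to 1012) and 621 (155 to 889). The groups overlapped. Its r with the endothelial markers (Pecam1, Cdh5, Kdr, Tek, Tie1, Emcn, Erg and Plvap) was 0.88 over 24 libraries and 0.48 in the 19, where it was no higher than with the proteases. Laser gave 0.974-fold (0.571 to 1.66) in wild type and 0.722-fold (0.414 to 1.26) in Ceacam1-/-.

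Kit lay at 683, 1484, 569 and 614 in wild type and 454, 772, 285 and 1064 in Ceacam1-/- libraries without laser, and had medians after laser of 562 (340 to 1055) and 535 (190 to 1325). The 4 highest values, 1484, 1325, 1064 and 1055, belonged to libraries 22, 15, 28 and 19, the 4 with the most surface keratin. Its r with the surface epithelium markers was 0.59 over 24 libraries, 0.56 in the 19 and 0.44 without libraries 15 and 28. Pigment cell markers summed to a median of 83316, and the r of Kit with them was 0.42 over 24 libraries and 0.00 in the 19. The part of melanocytes or epithelium in the Kit level was not tested. Laser gave 0.775-fold (0.429 to 1.40) in wild type and 0.785-fold (0.424 to 1.45) in Ceacam1-/-.

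**Figure D5:**
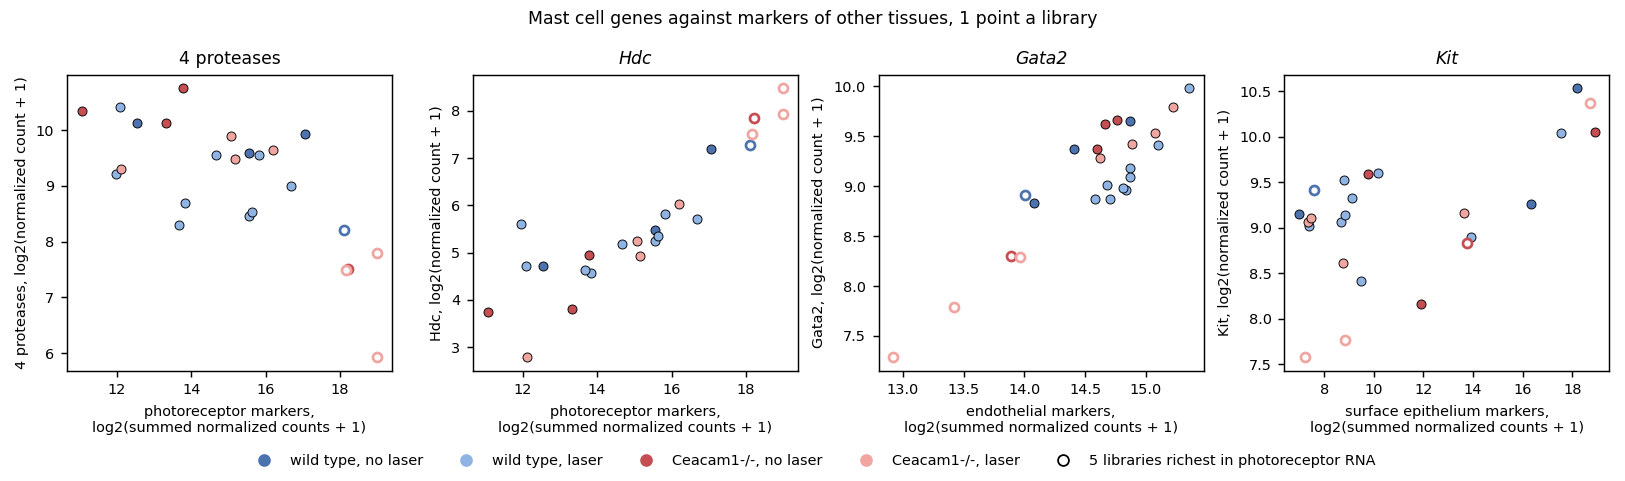
Each point is a library, coloured by group, with the summed markers of another tissue on the horizontal axis and the summed 4 proteases, Hdc, Gata2 or Kit on the vertical axis (both log2 of the value plus 1; open points, 5 photoreceptor-rich libraries). Hdc climbs with photoreceptor markers (r = 0.89 with their mean), the proteases go down with them (r = -0.68 over 24 libraries and -0.28 in the 19), Gata2 climbs with endothelial markers and the 4 highest Kit values sit at the keratin-rich end.

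The IgE receptor chains were near the limit of detection. Ms4a2 lay at 4.18, 18.4, 13.3 and 5.45 in wild type and 1.26, 23.1, 26 and 1.3 in Ceacam1-/- libraries without laser. With laser it was listed at 0 in 4 of 9 wild type libraries and 4 of 7 knockout libraries, with highest values of 33.0 and 4.37. An exact permutation test, two-sided, gave a log2 difference of -2.06 in wild type (unadjusted exact p = 0.0420) and -2.29 in Ceacam1-/- (unadjusted exact p = 0.0364). These 2 were the only ones under 0.05 among 8 such tests on members below the mean of 10, and no adjustment was made. With limma and no filter Ms4a2 also had an unadjusted p under 0.05 in both genotypes, as did 13.2% of all genes in wild type and 13.1% in Ceacam1-/-. Leaving out 1 library at a time gave an exact p of 0.00202 to 0.123 in wild type, under 0.05 only without library 16, and of 0.0143 to 0.0917 in Ceacam1-/-, under 0.05 without library 4, 5, 23 or 28. Without the 5 photoreceptor-rich libraries it was 0.05 and 0.143.

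Fcer1a, the chain that binds IgE, lay at 2.22, 2.00, 4.52 and 10.3 in wild type and 0, 16.9, 24.1 and 1.19 in Ceacam1-/- libraries without laser, with medians after laser of 7.40 (0.839 to 19.9) and 4.66 (0 to 19.7). The exact permutation p for laser was 0.327 in wild type and 0.776 in Ceacam1-/-. Its ranges overlapped in each comparison.

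Outside the 10 genes, 11 other granule genes were listed, and 6 of them reached the mean of 10. Of these 6, 0 passed for laser in either genotype, beside 5.28% of all genes in wild type and 3.72% in Ceacam1-/-. The chymase-like genes of mucosal mast cells were almost absent, with Mcpt1 above 0 in 2 of 24 libraries and Mcpt2 and Mcpt9 in 3 each. The granule genes of highest level, Cd63, Srgn, Ndst2 and Rab27b, are used by many secretory cells. Cd63, a granule membrane protein, was at 2.29-fold after laser in wild type (limma adjusted p = 0.0551). The basophil protease gene Mcpt8 was above 0 in 6 libraries, and no basophil marker (Mcpt8, Prss34, Cd200r3) reached the mean of 10. Cd200r3 is also in the list of further mast cell receptors and regulators used here, so these markers do not stand for basophils alone. Although low, the mean of the basophil markers varied with the 4 proteases, with r = 0.69 over 24 libraries and 0.36 in the 19. With group means removed r was 0.89 and 0.72.

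Of 11 further receptor and regulator genes, 7 were tested, and Fcer1g alone passed, in both genotypes. Of all genes, 5.28% passed in wild type and 3.72% in Ceacam1-/-. Fcer1g, the signalling γ chain that FcεRI shares with receptors of macrophages and other myeloid cells, rose 5.36-fold with laser in wild type (95% confidence interval 3.31 to 8.69; limma adjusted p = 9.07e-05) and 3.42-fold in Ceacam1-/- (2.07 to 5.66; adjusted p = 0.00708). The others of highest level, Mitf, Enpp3 and Siglecf, did not pass.

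Of the 12 genes of signalling below FcεRI, 6 rose with laser in wild type and 2 in Ceacam1-/-, and 0 fell. Of all genes, 5.28% and 3.72% passed in these comparisons. Lat2, an adaptor, rose 6.26-fold and 3.32-fold, and Ptpn6, a phosphatase, 2.71-fold and 2.20-fold in wild type and Ceacam1-/-. Btk (6.0-fold), Lcp2 (4.49-fold), Inpp5d (2.31-fold) and Lyn (2.08-fold) passed in wild type. All of the genes named here are also used by other leukocytes. In the interaction test 0 of the 12 passed, beside 0 of all 19950 genes. Of 8 eicosanoid and serotonin genes, Alox5ap, which hands arachidonic acid to 5-lipoxygenase, and Ptgs2, cyclooxygenase-2, rose in both genotypes (Alox5ap 3.71-fold and 2.47-fold, Ptgs2 5.53-fold and 3.66-fold).

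Markers of macrophages went with these shared genes. Of 8 macrophage markers 7 rose with laser in wild type and 5 in Ceacam1-/-, where 5.28% and 3.72% of all genes passed. Cd68 rose 6.84-fold and 4.15-fold. Aif1, Adgre1, Ptprc and Lyz2 rose in both genotypes too, and Itgam and C1qa passed in wild type. The sum of the 8 markers had medians of 12431 and 68349 without and with laser in wild type, and 10989 and 54868 in Ceacam1-/-. Lyz2 was the most abundant. Of 7 neutrophil markers 3 were tested and 1, S100a8, rose (5.16-fold in wild type and 9.48-fold in Ceacam1-/-), beside the same shares of all genes. S100a9 (2.56-fold and 2.34-fold) and Camp (1.15-fold and 0.640-fold) did not pass. In the 19 libraries without the 5 photoreceptor-rich ones, the mean of the proteases had r = -0.63 with the macrophage markers and -0.11 with the endothelial markers, where over all 24 it had 0.07 and 0.71. With group means removed it had 0.63 and 0.85 over 24 and -0.17 and 0.41 in the 19, so that the sign for macrophages depended on the libraries used. The part of macrophage RNA in the protease levels was not tested.

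Ligands and receptors around mast cells were expressed without passing. Kitl, which encodes stem cell factor, had medians of 1455 and 2030 without and with laser in wild type (1.57-fold, 95% confidence interval 1.01 to 2.44; limma adjusted p = 0.241), and 1193 and 2098 in Ceacam1-/- (1.19-fold, 0.748 to 1.88). Il33, an alarmin that acts on mast cells through ST2, was at 2.01-fold (limma adjusted p = 0.0742) and 2.05-fold (adjusted p = 0.0866). Il3 and Il9 were listed at 0 in all libraries. In the list of 9 ligands 4 were tested and 0 passed, and of 9 receptors for mast cell mediators 7 were tested and 0 passed. Of all genes, 5.28% passed in wild type and 3.72% in Ceacam1-/-. Cysltr1, a leukotriene receptor, was the most abundant of the receptors (2.92-fold in wild type, limma adjusted p = 0.0777).

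The genes whose pattern over 24 libraries was most like that of the 4 proteases, after the members, were Lama2 (r = 0.904), G0s2, Fgf7, Tns1, Pi16, Tnxb, Col22a1, Fst, Tmc6 and Txnip (r = 0.864), among 19950 genes. Lama2, a laminin chain of muscle and nerve basement membrane, had a median of 1197 in wild type without laser and 1079 with laser. Within groups, with group means removed, r was 0.891 for Lama2, and between 0.867 and 0.892 for the other 9. In the 19 libraries r was 0.765 for Lama2 and between 0.537 (Fst) and 0.778 (Fgf7) for the others, and their ranks among all genes were 36 to 1528. Pi16 and Tnxb are known from fibroblasts. Like Cpa3, Mcpt4, Cma1 and Tpsb2, each of these 10 genes was at its lowest in library 14, and no test was made of the likeness.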

How the data were processed

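RNA of 24 mouse choroid libraries was amplified by SMART-Seq and sequenced. Per the labels and methods, the authors quantified transcripts with Salmon 1.10.3 on GRCm39, summed them to genes and normalized with DESeq2 1.44.0; the deposited values are such normalized counts, a signal scaled by DESeq2 from imported Salmon estimates, from which whole reads could not be recovered. The depth of each library is therefore unknown, and no count model was used. Here log2(normalized count + 1) was fitted with limma 3.58.1 (trend; R 4.3.3) on genes whose mean in the fitted libraries reached 10, with all 24 libraries for laser and interaction, 8 for genotype without laser and 16 with laser. A fold change on this scale understates that of low genes. Members below the mean were compared by exact permutation tests. The study's covariate, sex, is not in the labels; summed Y-linked genes were an alternative. Libraries are labelled as separate samples but not tied to animals, so p-values measure the spread between libraries. The fit was tested on simulated data. One photoreceptor marker is not reported here and was left out of its list. The 10 genes and the other lists were chosen with earlier results of these data known. Named were all members, genes of the mast cell lists that passed, up to 4 of highest level per such list and the 10 genes most like the proteases. Other marker lists were endothelial, photoreceptor, surface epithelium, pigment cell, lymphocyte, fibroblast, skeletal muscle, adipocyte, Schwann cell and red blood cell genes. With laser, 0 of these passed except the fibroblast gene Lum, which rose in wild type and Ceacam1-/-, where 5.28% and 3.72% of all genes passed.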

Additional observations from a re-analysis of the deposited data

Results flagged for a closer look

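Within each group of 4 to 9 libraries, the gap between an extreme library and its nearest neighbour was compared with the range of the group by Dixon's 95% critical value, for 10 genes in 4 groups. Of the 40 combinations 11 were set apart. The critical value gives about 1 in 20 by chance only for normally distributed values. The values compared were normalized counts without log transformation, and their distribution was not tested. The 11 can therefore not be set against that rate. Genes that move together share extreme libraries, so the 11 are also not independent.

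Library 17 (wild type with laser) was the highest of its group for Mcpt4 (357), Cma1 (385), Tpsb2 (409) and Gata2 (1012). It also had the highest endothelial sum of all libraries (41811) and the lowest macrophage sum of the laser-treated wild type group (41913). Library 21 was the lowest wild type library without laser for Cpa3 (60.2), and library 23 the highest Ceacam1-/- library without laser for Hdc (230); both are rich in photoreceptor markers (summed to 280518 and 302753). Kit stood apart in library 22 (1484, wild type without laser) and library 15 (1325, Ceacam1-/- with laser), where surface epithelium markers summed to 300568 and 434537. Among the low genes, Ms4a2 stood apart at 33.0 in library 16 (wild type with laser) and at 4.37 in library 5 (Ceacam1-/- with laser), and Tpsab1 at 25 in library 7 (Ceacam1-/- with laser). The part of tissue composition in these values was not tested.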

How the results depend on the processing

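Other pseudocounts (0.5, 10) and filters (none, a mean of 50), quantile and upper-quartile scaling, no trend, robust variances, array weights, a Y-linked covariate, other libraries in the fit and each library left out in turn were tried, and, after the data were seen, leaving out the 5 photoreceptor-rich libraries. The count of members that passed was 0 in all of these except 2 with array weights for laser in wild type (Tpsab1, -1.81, limma adjusted p = 0.0395; Hdc, -1.50, 0.0348), where 32.6% of all genes passed, and 0 to 1 for laser in Ceacam1-/- leaving out 1 library (1 without library 23). The wide intervals, with 4 libraries without laser per genotype and tissue mixes that differ between libraries, limit every comparison, and sequencing depth is unknown. No paired analysis was possible because library numbers are not shared between groups. The causes of the changes below were not tested.

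Counts of all genes that passed moved most. For laser in wild type, 1053 became 6505 with array weights, 2274 with other libraries in the fit, 1645 without the 5 photoreceptor-rich libraries and 479 to 1257 leaving out 1 (479 without library 21, 554 without 27). For laser in Ceacam1-/-, 742 became 437 with no filter, 3551 with array weights, 38 with other libraries in the fit, 2923 without the 5 and 148 to 2488 leaving out 1 (2488 without library 23, 255 without 24, 148 without 25, 466 without 5). For genotype without laser, 0 became 1 with upper-quartile scaling, without trend and with array weights, and 0 to 1 leaving out 1 (1 without library 24). For genotype with laser, 4 became 2 with a filter at a mean of 50, 297 with array weights, 9 with other libraries in the fit, 2 without the 5 and 4 to 61 leaving out 1 (61 without library 19, 25 without 17, 7 without 4).

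Signs turned only in differences that did not pass. For genotype with laser they turned with array weights (Cpa3 0.60, Mcpt4 0.46, Cma1 0.27, Tpsb2 0.32, Gata2 0.30), without the 5 (Cpa3 0.71, Mcpt4 0.45, Cma1 0.46, Tpsb2 0.52, Gata2 0.35, Hdc -0.46, and in exact tests Fcer1a 0.37 and Tpsab1 0.40), with the Y-linked covariate (Cpa3 0.28) and for Cpa3 leaving out 1 (-0.39 to 0.13). For genotype without laser they turned with array weights (Ms4a2 0.77, Tpsab1 0.01), with a pseudocount of 10 (Ms4a2 0.02) or 0.5 (Fcer1a -0.01) and leaving out 1 (Cma1 -0.22 to 0.99, Cpa3 -0.38 to 0.73, Tpsb2 -0.35 to 0.77, Tpsab1 -1.90 to 0.01, Ms4a2 -0.67 to 0.22, Gata2 -0.09 to 0.36, Fcer1a -0.54 to 1.01). For the interaction they turned with array weights (Cpa3 0.29, Kit -0.24), the Y-linked covariate (Kit -0.13), quantile scaling (Kit -0.07), without the 5 (Cpa3 0.42, Tpsb2 0.19, Gata2 0.09) and leaving out 1 (Cpa3 -0.92 to 0.20, Kit -0.31 to 0.32, Tpsab1 -0.62 to 1.29). For laser in wild type they turned for Gata2 (0.07 with array weights, 0.00 with quantile scaling, -0.16 to 0.11 leaving out 1) and Cma1 (-0.56 to 0.05 leaving out 1), and for laser in Ceacam1-/- for Fcer1a (0.03 without the 5, -1.12 to 0.43 leaving out 1).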

Other observations

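Ceacam1 itself was highest where surface keratin was high. Within wild type it lay at 8367 in library 19, 5027 in library 22 and 4596 in library 27, whose surface epithelium markers summed to 188895, 300568 and 83032, and at no more than 1776 in the other wild type libraries. Within Ceacam1-/- the highest values, 1171 and 905, were those of libraries 28 and 15, where these markers summed to 489855 and 434537. These values were noticed after the data were seen and no test was run.

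Among wild type libraries without laser, library 27 had Hdc at 146, next to 155 in library 21, with photoreceptor markers summing to 135568, below the 5 photoreceptor-rich libraries. Il1rl1, which encodes the interleukin-33 receptor ST2 of mast cells and other leukocytes, was at 4.28-fold with laser in wild type (limma adjusted p = 0.109) and 3.07-fold in Ceacam1-/- (limma adjusted p = 0.250), neither past the threshold.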
